A study of Mus musculus with 18 samples.

Results

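The genes described here are 49 ligands, receptors, antagonists, SMAD proteins and transcriptional targets of bone morphogenetic protein (BMP) and transforming growth factor beta (TGF-beta) signalling, taken by name from a fixed list and all found among the 27997 genes of the expression table. They were followed in neural stem cells (NSCs) grown as adherent cultures and in the astrocytes made from them with BMP4, in 18 bulk RNA sequencing libraries of mouse cells, 3 for each of 6 groups. The groups are 3 culture lines in 2 fates. A first line came from tdTomato+ cells sorted out of spinal cord neurospheres of DNGR-1 Cre mice with a Cre-dependent tdTomato reporter (labelled genotype DNGR-1 +/- Tom+/-), a second from EYFP+ cells of mice with an EYFP reporter (DNGR-1 +/- EYFP+/-), and the third from the hippocampus of mice carrying Glast Cre, a floxed Huwe1 allele and an EYFP reporter (labelled DNGR-1+/+). In the traced lines, Cre stands in the Clec9a gene, which encodes DNGR-1, so the reporter marks cells with a history of DNGR-1 expression. Mice were backcrossed to C57BL/6j and in general 6 to 14 weeks old, with no age or sex given for the donors of these lines in particular in the sources used here.

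NSCs were collected after 4 days with EGF and bFGF (each 20 ng/ml), heparin and laminin. Astrocytes were collected after 6 days in medium with BMP4 (20 ng/ml), renewed after 3 days. The change from NSC to astrocyte therefore combines the addition of BMP4, the removal of the growth factors and a longer culture, which cannot be told apart here. The 3 libraries of a group came from passages 10 to 12 of one line, so the tests measure the spread between cultures of a line and not between animals, and with a single hippocampal line, a difference of the traced lines from it cannot be told apart from a difference between individual lines. Whether the floxed Huwe1 allele was recombined is not stated in the sources used here, and the group means of Huwe1 were between 13.06 and 13.32 on the log2 scale in all 6 groups.

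BMPs and TGF-betas are secreted dimers that bring together type I and type II receptor kinases. BMP receptors pass the signal to SMAD1, SMAD5 and SMAD9, and TGF-beta and activin receptors to SMAD2 and SMAD3, which enter the nucleus with SMAD4. In neural stem cells, BMP signalling is known for promoting astrocyte differentiation and for inducing the ID proteins, and the pathway is restrained by secreted antagonists, inhibitory SMADs, ubiquitin ligases and nuclear co-repressors, several of which are themselves targets of the signal.

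All values are log2 expression values as deposited, on a transform not named in the sources used here, and fold changes are read off that scale. Replicates of a group differed by a median of 0.0746 to 0.126 over the genes tested. A gene was tested where it reached a log2 value of 3.32 in at least 3 libraries, which held for 15448 genes and 44 of the 49. The labelled fates were checked by markers. Gfap, the intermediate filament of astrocytes, rose from 9.06, 9.30 and 9.27 in NSCs to 15.14, 15.67 and 16.40 in astrocytes of the tdTomato, EYFP and hippocampal lines. Nes, which encodes the stem cell filament nestin, stood at 11.09 and 10.86 in traced astrocytes but at 13.64 in hippocampal astrocytes, near the NSC values of 13.86 to 14.27. The summed level of all 7 NSC markers, in which Vim was the highest in astrocytes, did not fall in traced astrocyte libraries (16.5 to 16.7, as in the NSC libraries) and stood at 17.6 to 17.9 in hippocampal ones. The sum of 8 astrocyte markers was 15.06 to 16.23 in NSC and 17.24 to 17.98 in astrocyte libraries. The summed level of 8 pericyte and fibroblast markers, 5 of which passed the filter, went from 5.43 to 5.84 in NSC libraries to 7.72 to 9.55 in astrocyte libraries. Kcnj8, Rgs5 and, in the hippocampal line, Vtn carried it. Pdgfrb and Col1a2 had group means below 0 throughout, and the levels of Col1a1, Lum and Dpt are not given here. Ependymal markers, 3 of 6 past the filter, also rose in sum, from 9.45 to 10.5 in NSC libraries to 11.0 to 12.3 in astrocyte libraries. Oligodendrocyte lineage markers, 6 of 8 past the filter, fell in sum from 15.8 to 16.1 in NSC libraries to 13.7 to 15.1 in astrocyte libraries. Of 6 myeloid markers, 1 passed the filter, and Ptprc, Aif1 and Itgam were below 0 in every library. Their sum stood apart in the tdTomato line, at 5.05 to 6.37 against 2.59 to 4.43 in EYFP and 2.45 to 2.80 in hippocampal libraries, and was carried by Tmem119. The part of these other-cell markers in the results was not tested, and in bulk samples fewer cells of a type and less RNA per cell cannot be told apart.

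After 6 days in BMP4, 5 of the 6 listed target genes, Id1 to Id4 and Msx1, rose in each line. The inhibitory genes Smad6, Smad7 and Nog and the signal carrier Smad9 rose as well, while Bmp7, Chrdl1, Fst and Skil fell. In the tdTomato line 25 of the 44 tested genes rose and 12 fell (adjusted p under 0.05, limma with Benjamini-Hochberg adjustment over all genes tested), where 39.9% of all genes tested rose, 38.5% fell and 78.4% did either. In the EYFP line 24 rose and 14 fell, against 38.2%, 37.0% and 75.2% of all genes. In the hippocampal line 24 rose and 11 fell, against 39.0%, 37.3% and 76.3%. As shares of the 44 genes, rises were 56.8%, 54.5% and 54.5% and falls 27.3%, 31.8% and 25.0%, so that rises lay above and falls below the shares of all genes, a description with no test. The median absolute log2 change was 1.20, 1.08 and 1.06 in the tdTomato, EYFP and hippocampal lines, and 0.55, 0.49 and 0.51 over all genes tested.

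Rises of at least 1 on the log2 scale, called in all 3 lines, were found for 16 of the 44 genes, which is 36.4%, against 9.06% of all genes tested. These were Bmp6, Tgfb2, Bmpr1a, Bmpr1b, Tgfbr3, Bambi, Nog, Smad9, Smad6, Smad7, Ski, Id1, Id2, Id3, Id4 and Msx1. Of these, Bmp6 passed the filter only through its astrocyte libraries. Falls of at least 1 in all 3 lines were found for 4 genes, Bmp7, Chrdl1, Fst and Skil, which is 9.09%, against 6.68% of all genes. With no minimum size, 20 genes rose and 9 fell in all 3 lines, where 28.1% and 27.8% of all genes did. Inhba, Acvr2b and Chrd passed the test in no line, as did 7.49% of all genes, although after quantile normalization each had a fall that passed in at least 1 line. Acvr2a, Tgfbr2 and Smurf1 had calls in opposite directions in different lines, as did 5.64% of all genes.

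**Figure D1:**
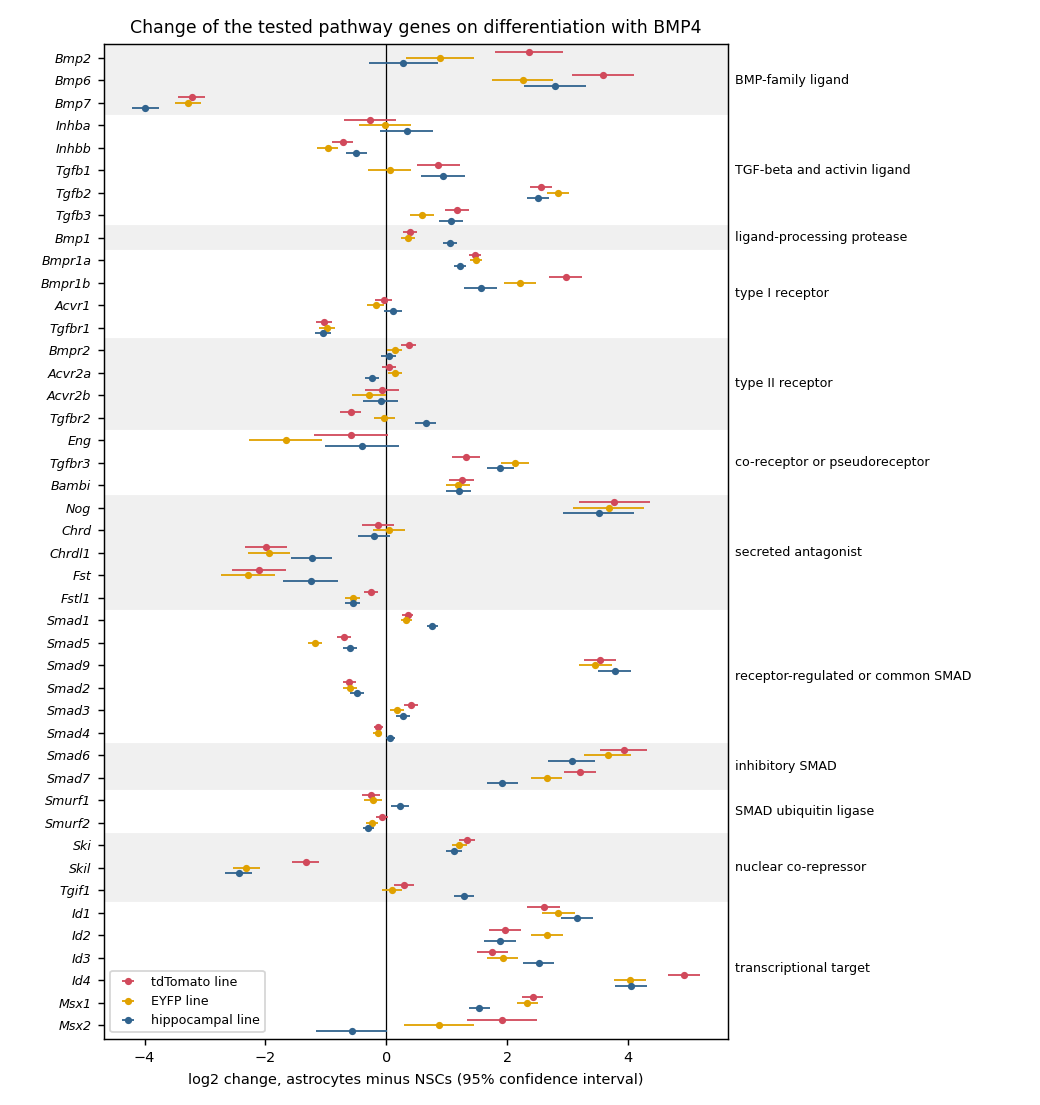
Log2 change (astrocytes minus NSCs, x axis) of each of the 44 tested genes, ordered by role, with a point and 95% confidence interval for each line (red tdTomato, yellow EYFP, blue hippocampal). The ID genes, Msx1, Smad6, Smad7, Smad9 and Nog lie above 1 in each line and Bmp7 below -3, while Msx2, Bmp2, Tgfbr2 and Tgif1 differ between the lines.

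The promoters of SMAD and target genes that rose by at least 1 in all 3 lines are shown because the genes moved together and because BMP-activated SMADs are known to bind GC-rich DNA. Each window holds the 250 bases before the start site in RefSeq (GRCm38.p6), printed 5′ to 3′ on the gene's own strand. Capitals mark GGCGCC, the palindromic letters of a BMP-SMAD element, and GTCTG or its reverse complement CAGAC, a SMAD-binding core. Windows of Id2 and Id3 hold exonic sequence and are not printed, and no window of Smad7 or Id1 was used here.
Smad9, chr3:54755332-54755581, + strand: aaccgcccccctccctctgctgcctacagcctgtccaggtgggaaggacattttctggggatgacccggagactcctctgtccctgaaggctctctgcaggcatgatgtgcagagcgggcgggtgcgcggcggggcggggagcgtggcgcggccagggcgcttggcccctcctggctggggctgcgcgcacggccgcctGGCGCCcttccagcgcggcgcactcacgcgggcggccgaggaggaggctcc
Smad6, chr9:64022060-64022309, - strand: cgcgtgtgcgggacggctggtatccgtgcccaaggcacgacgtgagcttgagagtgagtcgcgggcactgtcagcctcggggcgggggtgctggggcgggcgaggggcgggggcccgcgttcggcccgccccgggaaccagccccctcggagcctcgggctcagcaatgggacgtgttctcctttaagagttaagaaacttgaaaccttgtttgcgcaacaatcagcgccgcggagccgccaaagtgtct
Id4, chr13:48260866-48261115, + strand: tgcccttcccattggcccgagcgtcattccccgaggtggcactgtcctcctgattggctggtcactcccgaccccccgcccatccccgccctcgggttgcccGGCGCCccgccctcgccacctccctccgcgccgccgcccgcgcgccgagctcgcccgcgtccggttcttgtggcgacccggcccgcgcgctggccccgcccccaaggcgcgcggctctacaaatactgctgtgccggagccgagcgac
Msx1, chr5:37824586-37824835, - strand: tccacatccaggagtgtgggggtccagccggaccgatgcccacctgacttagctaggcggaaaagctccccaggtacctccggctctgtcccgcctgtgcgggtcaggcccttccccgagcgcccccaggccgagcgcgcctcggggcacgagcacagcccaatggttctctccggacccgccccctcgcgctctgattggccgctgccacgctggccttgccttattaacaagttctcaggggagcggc

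GGCGCC lay 51 bases before the start in the Smad9 window and 148 bases before the start in the Id4 window. The Smad6 and Msx1 windows held none of the letters searched, and none of the 4 windows held GTCTG or CAGAC. The base composition was GC-rich throughout, at 73.2% for Smad9, 66.8% for Smad6, 75.6% for Id4 and 68.0% for Msx1. Among 43 windows of 34 listed genes, 25.6% held GGCGCC, against 16.9% of windows of the genes tested and 9.6% of all 32817 windows. The median GC content ran the same way, at 66.8%, 60.0% and 52.4%. GTCTG or CAGAC was in 44.2%, 40.3% and 42.2% of the same windows. A match describes letters in a window and not a bound site.

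Among the BMP-family ligands, Bmp7 fell and Bmp6 rose in each line, and Bmp2 rose in the traced lines. Bmp7, an osteogenic BMP that was the best expressed of the BMP ligands in NSCs per kilobase, went from 9.63, 9.81 and 9.76 in NSCs to 6.39, 6.64 and 6.50 in astrocytes of the tdTomato line, from 9.14, 9.21 and 9.28 to 5.95, 5.81 and 6.03 in the EYFP line, and from 9.26, 9.33 and 9.35 to 5.16, 5.23 and 5.59 in the hippocampal line. No astrocyte library overlapped the NSC libraries, and the log2 level fell by 3.22, 3.28 and 3.98 in the tdTomato, EYFP and hippocampal lines (standard error 0.10, largest limma adjusted p 7.25e-15), a decrease of 9.33, 9.70 and 15.8-fold. Log2 levels of Bmp6, which signals through the same receptors as Bmp7, went from 1.44, 1.44 and 1.46 in NSCs to 5.55, 4.79 and 4.76 in astrocytes of the tdTomato line, from 1.40, 1.39 and 1.43 to 4.04, 3.28 and 3.64 in the EYFP line, and from 1.79, 1.46 and 1.76 to 4.53, 4.11 and 4.73 in the hippocampal line. Its NSC libraries were all below the level of the filter, so that Bmp6 was tested only through its astrocyte libraries and the log2 rises of 3.59, 2.25 and 2.79 (standard error 0.24) are given as a description. Of the exonic bases of Bmp6, 5.74% overlap Txndc5 on the other strand, and the strand setting of the counting is not stated in the sources used here.

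Bmp2, a ligand known for osteogenic and neural patterning roles, had the largest differences between lines in its change among the listed BMP ligands that passed the filter. Its log2 level went from 3.35, 3.65 and 3.63 in NSCs to 6.10, 5.83 and 5.76 in astrocytes of the tdTomato line, from 3.17, 2.82 and 3.12 to 4.34, 3.98 and 3.48 in the EYFP line, and from 2.80, 3.19 and 2.42 to 3.44, 3.34 and 2.48 in the hippocampal line. Astrocytes of the tdTomato line stood above every other library. The changes were 2.35, 0.89 and 0.28 (standard error 0.27), with a limma adjusted p of 2.71e-07 in the tdTomato line. The EYFP and hippocampal NSC libraries all lay under the level of the filter, so the changes of these lines are a description. The hippocampal change did not pass the test (limma adjusted p 0.345). Bmp4, the protein added to the medium, was itself not tested as a transcript, with log2 values from -1.31 to -0.36. Bmp5 did not exceed 0.97 in any library. Gdf10, a BMP3-related ligand, read 2.99, 2.68 and 2.69 in tdTomato astrocytes, 1.93, 2.66 and 1.27 in EYFP astrocytes and 0.64, 1.73 and 0.96 in hippocampal astrocytes, and at most 1.21 in NSCs, under the level of the filter in every library.

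Of the TGF-beta and activin ligands, Tgfb2 stood out. Tgfb2, the TGF-beta isoform that needs betaglycan for efficient receptor binding, went on the log2 scale from 10.21, 10.27 and 10.18 in NSCs to 12.61, 12.77 and 12.95 in astrocytes of the tdTomato line, from 10.21, 10.34 and 10.04 to 12.92, 13.08 and 13.12 in the EYFP line, and from 10.05, 10.10 and 10.02 to 12.69, 12.57 and 12.42 in the hippocampal line. The groups did not overlap in any line and the rises were 2.56, 2.84 and 2.50 (standard error 0.09, largest limma adjusted p 1.59e-14), which is 5.88, 7.18 and 5.67-fold. Per kilobase of exon, its mean log2 level of 10.25, 10.50 and 10.03 in astrocytes was the highest of the ligand genes. Tgfb3 rose by 1.16, 0.58 and 1.07 (largest limma adjusted p 1.88e-05), although 12.4% of its exonic bases overlap genes on the other strand. Tgfb1 rose by 0.86 in the tdTomato line and 0.94 in the hippocampal line, and its EYFP change of 0.05 (95% interval -0.31 to 0.41) did not pass. Inhbb, which encodes an activin subunit, had falls of 0.73, 0.97 and 0.50 on the log2 scale in the 3 lines (largest limma adjusted p 2.92e-05).

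Inhba, which encodes another activin subunit, was lower in hippocampal than in traced NSCs. Log2 levels of Inhba read 4.34, 4.17 and 4.27 in NSCs and 4.33, 3.81 and 3.83 in astrocytes of the tdTomato line, 4.14, 4.18 and 4.23 and 4.10, 4.52 and 3.85 in the EYFP line, and 3.18, 3.07 and 3.15 and 3.61, 3.07 and 3.73 in the hippocampal line. Every traced NSC library was above every hippocampal NSC library. The changes of -0.27, -0.02 and 0.34 did not pass the test in any line (smallest limma adjusted p 0.147). Bmp1, a protease that processes procollagens and releases BMPs by cutting chordin, had rises of 0.39, 0.36 and 1.05 (largest limma adjusted p 1.90e-05).

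The BMP type I receptor genes Bmpr1a and Bmpr1b rose in each line and the TGF-beta type I receptor gene fell, while Acvr1 moved little. Bmpr1a, the broadly expressed BMP receptor, went on the log2 scale from 12.23, 12.20 and 12.22 in NSCs to 13.63, 13.67 and 13.76 in astrocytes of the tdTomato line, from 12.32, 12.29 and 12.30 to 13.73, 13.83 and 13.77 in the EYFP line, and from 12.35, 12.28 and 12.35 to 13.64, 13.44 and 13.55 in the hippocampal line. NSC and astrocyte libraries did not overlap, with rises of 1.47, 1.48 and 1.21 (standard error 0.05, largest limma adjusted p 9.97e-14). Bmpr1b, a second BMP type I receptor, moved further, from 8.90, 8.39 and 8.19 in NSCs to 11.42, 11.40 and 11.55 in astrocytes of the tdTomato line, from 9.89, 9.94 and 9.53 to 11.98, 11.98 and 12.02 in the EYFP line, and from 9.62, 9.72 and 9.65 to 11.22, 11.19 and 11.25 in the hippocampal line. The rises were 2.96, 2.21 and 1.56 (standard error 0.13, largest limma adjusted p 2.99e-09), or 7.80, 4.62 and 2.95-fold, and tdTomato NSCs started below the other NSCs. Per kilobase of exon, the mean log2 level of Bmpr1b in NSCs was 5.92, 7.21 and 7.09, below the 9.55, 9.64 and 9.66 of Bmpr1a. Tgfbr1, the TGF-beta type I receptor, had falls of 1.03, 0.98 and 1.05 on the log2 scale (largest limma adjusted p 7.65e-11). Acvr1, a further BMP and activin receptor, had log2 changes of -0.05, -0.18 and 0.11, of which the EYFP value passed (limma adjusted p 0.0242) and lost its call after median centring (adjusted p 0.107) and in 3 of the 18 fits that leave out a library, up to 0.153 without the third EYFP astrocyte library. Acvrl1, an endothelial receptor, did not exceed 0.85 and was not tested.

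Type II receptor genes moved little or in different directions by line. Bmpr2, the BMP type II receptor, rose by 0.37 in the tdTomato line (limma adjusted p 1.87e-05), and changed by 0.14 and 0.04 in the EYFP and hippocampal lines. The EYFP value passed narrowly (limma adjusted p 0.0478) and lost its call in 12 of the 18 fits that leave out a library, up to an adjusted p of 0.285 without the second EYFP astrocyte library. Tgfbr2, the TGF-beta type II receptor, fell by 0.59 in the tdTomato line and rose by 0.65 in the hippocampal line (limma adjusted p 3.38e-06 and 1.03e-06), with a change of -0.04 (95% interval -0.21 to 0.14) in the EYFP line. Acvr2a, an activin receptor, had changes of 0.05, 0.14 and -0.24, of which the EYFP rise lost its call in 4 of 18 such fits (highest adjusted p 0.115, without the third EYFP NSC library) and the hippocampal fall passed with a limma adjusted p of 0.000706. Acvr2b changed by -0.08, -0.29 and -0.10 and passed in no line.

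Genes of the co-receptor betaglycan and of the pseudoreceptor BAMBI rose in each line. Tgfbr3, which encodes the TGF-beta2 co-receptor betaglycan, went on the log2 scale from 7.55, 7.91 and 7.78 in NSCs to 9.18, 8.90 and 9.11 in astrocytes of the tdTomato line, from 6.83, 6.86 and 6.94 to 8.91, 8.92 and 9.19 in the EYFP line, and from 6.44, 6.19 and 6.28 to 8.05, 8.24 and 8.27 in the hippocampal line. The rises were 1.32, 2.13 and 1.88 (standard error 0.11, largest limma adjusted p 3.19e-09). Log2 levels of Bambi, a receptor-like protein without kinase activity that blocks signalling, went from 8.24, 8.18 and 8.16 in NSCs to 9.63, 9.30 and 9.39 in astrocytes of the tdTomato line, from 8.04, 7.84 and 7.63 to 9.03, 8.95 and 9.08 in the EYFP line, and from 7.85, 7.85 and 7.82 to 9.19, 8.95 and 8.95 in the hippocampal line. Its rises were 1.24, 1.19 and 1.20 in the 3 lines (standard error 0.10, largest limma adjusted p 3.37e-09). Eng, a co-receptor of endothelial cells, was weak and reached the filter only in the 3 EYFP NSC libraries and 1 hippocampal NSC library, so that its fall counted in the EYFP line, where the log2 mean went from 3.80 ± 0.35 to 2.13 ± 0.25 (SD, n = 3 libraries), is a description. After quantile normalization falls of Eng were called in the tdTomato and hippocampal lines too (-0.98 and -0.79). These are descriptions as well, since no tdTomato library and 1 hippocampal library reached the filter.

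The secreted antagonists split, with Nog rising and Chrdl1 and Fst falling. Nog encodes noggin, which binds BMPs and keeps them from their receptors. On the log2 scale Nog went from 4.47, 4.08 and 4.36 in NSCs to 8.53, 8.07 and 7.62 in astrocytes of the tdTomato line, from 4.61, 4.77 and 3.86 to 8.46, 8.17 and 7.65 in the EYFP line, and from 4.20, 4.43 and 4.32 to 8.39, 7.66 and 7.43 in the hippocampal line. Despite a wider spread among the astrocyte libraries, no groups overlapped and the rises were 3.77, 3.68 and 3.51 (standard error 0.28, largest limma adjusted p 2.05e-09), or 13.6, 12.8 and 11.4-fold. Chrdl1, a chordin-like BMP antagonist, went from 8.19, 8.25 and 8.30 in NSCs to 6.01, 6.40 and 6.35 in astrocytes of the tdTomato line, from 8.11, 8.01 and 8.29 to 6.23, 6.36 and 5.99 in the EYFP line, and from 8.63, 8.52 and 8.75 to 7.24, 7.06 and 7.88 in the hippocampal line. It fell by 1.99, 1.94 and 1.24 on the log2 scale (standard error 0.16, largest limma adjusted p 1.83e-06), and hippocampal astrocytes kept the highest level of the astrocyte groups. Fst, which encodes the activin antagonist follistatin, went from 6.57, 6.40 and 6.25 in NSCs to 4.41, 4.21 and 4.29 in astrocytes of the tdTomato line, from 5.93, 5.87 and 5.75 to 4.12, 3.34 and 3.22 in the EYFP line, and from 5.82, 5.97 and 5.83 to 5.10, 4.39 and 4.38 in the hippocampal line. Its falls were 2.11, 2.29 and 1.25 (standard error 0.21, largest limma adjusted p 4.00e-05).

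Fstl1, a follistatin-like secreted protein, had smaller falls of 0.25, 0.56 and 0.56 on the log2 scale (largest limma adjusted p 0.000550). Chrd, chordin, changed by -0.14, 0.05 and -0.20 and passed in no line. Grem1, which encodes the BMP antagonist gremlin, missed the filter because only 2 libraries reached it. Grem1 read 3.61, 3.75 and 3.25 in astrocytes of the tdTomato line and at most 1.16 in each of the other 15 libraries. Its log2 change was 3.24 in the tdTomato line, against 0.16 and 0.36 in the EYFP and hippocampal lines, a description, since the gene was not tested.

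**Figure D2:**
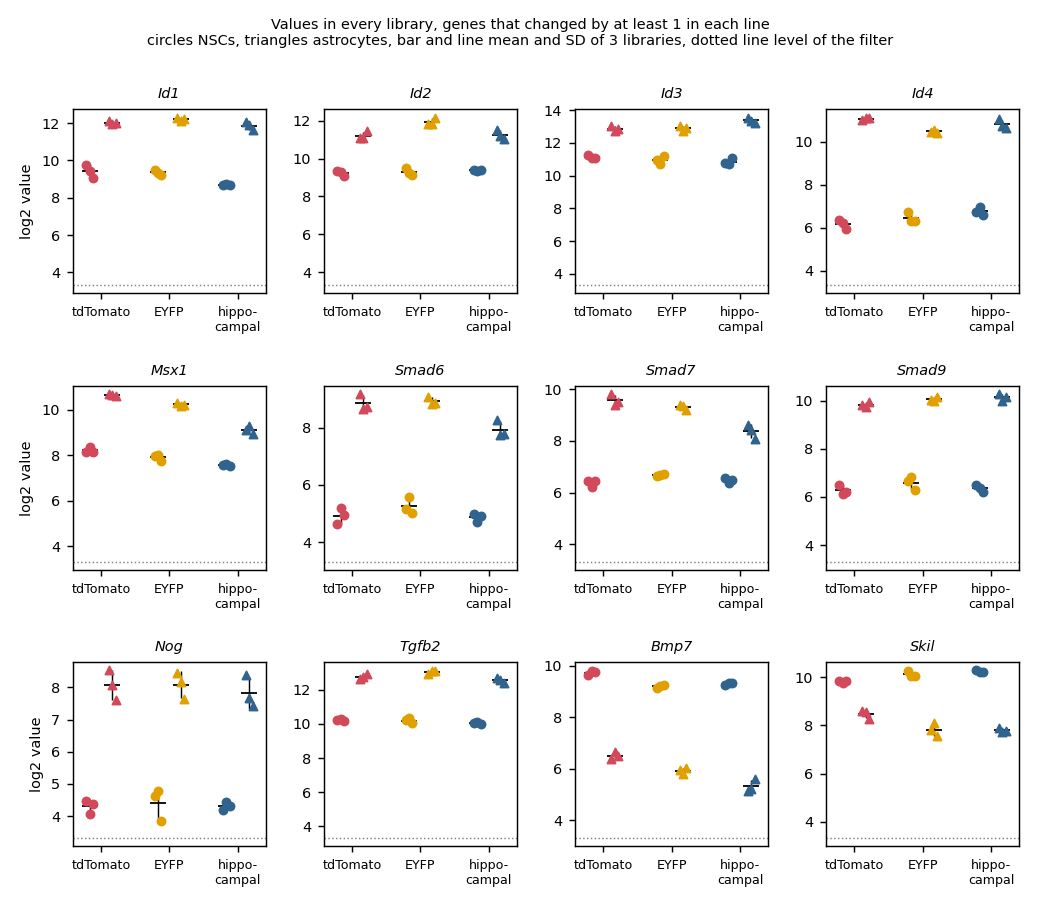
Log2 value (y axis) of 12 genes in every library by line (x axis), with circles for NSCs, triangles for astrocytes, a bar and line for the mean and SD of 3 libraries and a dotted line at the level of the filter. In each of the 12 panels and each line, NSC and astrocyte libraries are fully separated, with Bmp7 and Skil lower and the others higher in astrocytes.

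Among the signal-carrying SMADs, Smad9 had the largest change in each line. Smad9 encodes the least studied of the BMP-activated SMADs. Its log2 level went from 6.51, 6.14 and 6.23 in NSCs to 9.82, 9.71 and 9.95 in astrocytes of the tdTomato line, from 6.67, 6.82 and 6.28 to 10.02, 9.98 and 10.15 in the EYFP line, and from 6.49, 6.39 and 6.20 to 10.27, 9.99 and 10.13 in the hippocampal line. The groups were fully separated and the rises of 3.54, 3.46 and 3.77 (standard error 0.13, largest limma adjusted p 4.93e-14) correspond to 11.6, 11.0 and 13.7-fold. Smad1 rose by 0.35, 0.33 and 0.76 (largest limma adjusted p 1.63e-06) while Smad5 fell by 0.70, 1.18 and 0.61 on the log2 scale (largest limma adjusted p 1.34e-08). Per kilobase of exon the mean log2 level of Smad9 in astrocytes, 7.40, 7.63 and 7.71 in the tdTomato, EYFP and hippocampal lines, lay close to that of Smad1 (7.70, 7.75 and 8.18), whereas in NSCs it was 3.87, 4.17 and 3.93 against 7.35, 7.42 and 7.43. Smad5 remained the best expressed of these 3 on that scale.

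For the TGF-beta and activin branch, Smad2 fell by 0.61, 0.60 and 0.49 and Smad3 rose by 0.41, 0.18 and 0.27 on the log2 scale (largest limma adjusted p 1.49e-07 and 0.00541). Smad4, the shared partner, fell by 0.13 and 0.15 in the tdTomato and EYFP lines, and its hippocampal change was 0.07 (limma adjusted p 0.0964). With the libraries centred on their medians, which shifts the median change of all genes in the tdTomato line from 0.01 to 0.10, the Smad4 value there became -0.05 and did not pass.

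Both inhibitory SMAD genes rose from low NSC levels. SMAD6 and SMAD7 compete with the signal-carrying SMADs and recruit ubiquitin ligases to the receptors. On the log2 scale Smad6 went from 4.62, 5.20 and 4.94 in NSCs to 9.17, 8.64 and 8.72 in astrocytes of the tdTomato line, from 5.16, 5.59 and 5.02 to 9.07, 8.82 and 8.86 in the EYFP line, and from 4.98, 4.72 and 4.90 to 8.27, 7.75 and 7.76 in the hippocampal line. The rises were 3.92, 3.66 and 3.06 (standard error 0.19, largest limma adjusted p 4.60e-11), or 15.2, 12.7 and 8.35-fold. Log2 levels of Smad7 went from 6.46, 6.23 and 6.45 in NSCs to 9.82, 9.40 and 9.52 in astrocytes of the tdTomato line, from 6.65, 6.67 and 6.71 to 9.42, 9.35 and 9.21 in the EYFP line, and from 6.56, 6.37 and 6.47 to 8.63, 8.44 and 8.09 in the hippocampal line. Its rises were 3.20, 2.65 and 1.92 (standard error 0.12, largest limma adjusted p 1.12e-10), or 9.19, 6.27 and 3.78-fold, and for both genes hippocampal astrocytes stood lowest. Smurf1, a ubiquitin ligase that targets SMADs, had small changes of -0.25, -0.22 and 0.22, with a call in each line. Its EYFP call was lost without the second EYFP NSC library (adjusted p 0.0508) and its hippocampal call without the first hippocampal astrocyte library (adjusted p 0.066). Smurf2 changed by -0.07, -0.24 and -0.30 and passed in the EYFP and hippocampal lines (limma adjusted p 0.000149 and 1.24e-05).

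The nuclear co-repressors SKI and SnoN, which bind SMADs and block their activation of genes, moved in opposite directions at the transcript level. Ski went on the log2 scale from 12.22, 12.19 and 12.19 in NSCs to 13.64, 13.46 and 13.49 in astrocytes of the tdTomato line, from 12.25, 12.28 and 12.21 to 13.52, 13.47 and 13.38 in the EYFP line, and from 12.30, 12.15 and 12.16 to 13.47, 13.23 and 13.28 in the hippocampal line. It rose by 1.33, 1.21 and 1.12 (standard error 0.06, largest limma adjusted p 1.11e-11). Log2 levels of Skil, the gene of SnoN and a known TGF-beta target, went from 9.87, 9.76 and 9.83 in NSCs to 8.61, 8.58 and 8.27 in astrocytes of the tdTomato line, from 10.25, 10.06 and 10.07 to 7.79, 8.08 and 7.55 in the EYFP line, and from 10.29, 10.21 and 10.22 to 7.88, 7.74 and 7.79 in the hippocampal line. Skil fell by 1.34, 2.32 and 2.44 (standard error 0.11, largest limma adjusted p 2.30e-09), and tdTomato astrocytes kept the most. Tgif1, a homeodomain co-repressor of SMAD2 and SMAD3, went from 8.72, 8.60 and 8.61 in NSCs to 9.00, 8.80 and 9.00 in astrocytes of the tdTomato line, from 8.89, 9.00 and 8.95 to 9.11, 8.88 and 9.13 in the EYFP line, and from 8.49, 8.26 and 8.46 to 9.73, 9.64 and 9.69 in the hippocampal line. Its change of 1.28 in the hippocampal line exceeded the 0.29 of the tdTomato line, and the EYFP change of 0.09 (limma adjusted p 0.295) did not pass.

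The ID genes encode helix-loop-helix proteins without a DNA-binding domain that hold back neurogenic and oligodendrocyte-promoting factors, and all 4 rose in each line. Log2 levels of Id1 went from 9.77, 9.46 and 9.07 in NSCs to 12.09, 11.98 and 12.03 in astrocytes of the tdTomato line, from 9.49, 9.35 and 9.23 to 12.28, 12.09 and 12.24 in the EYFP line, and from 8.68, 8.73 and 8.70 to 12.07, 11.90 and 11.61 in the hippocampal line. The rises were 2.60, 2.84 and 3.15 (standard error 0.13, largest limma adjusted p 3.05e-12), or 6.06, 7.18 and 8.89-fold. Id2, on the same scale, went from 9.34, 9.27 and 9.09 in NSCs to 11.08, 11.06 and 11.43 in astrocytes of the tdTomato line, from 9.48, 9.23 and 9.12 to 11.82, 11.80 and 12.16 in the EYFP line, and from 9.41, 9.32 and 9.38 to 11.51, 11.17 and 11.06 in the hippocampal line. It rose by 1.96, 2.65 and 1.87 (standard error 0.13, largest limma adjusted p 2.04e-10), most in the EYFP line. Log2 levels of Id3 went from 11.23, 11.05 and 11.06 in NSCs to 13.00, 12.73 and 12.86 in astrocytes of the tdTomato line, from 10.98, 10.72 and 11.17 to 13.01, 12.69 and 12.92 in the EYFP line, and from 10.79, 10.68 and 11.08 to 13.54, 13.35 and 13.21 in the hippocampal line. Id3 rose by 1.75, 1.92 and 2.52 (standard error 0.12, largest limma adjusted p 2.80e-10), most in the hippocampal line.

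Id4 had the largest rise of the 44 genes in each line. It went on the log2 scale from 6.35, 6.20 and 5.95 in NSCs to 11.02, 11.13 and 11.10 in astrocytes of the tdTomato line, from 6.75, 6.33 and 6.32 to 10.48, 10.57 and 10.42 in the EYFP line, and from 6.74, 6.95 and 6.61 to 11.06, 10.74 and 10.66 in the hippocampal line. The changes of 4.92, 4.03 and 4.05 (standard error 0.13, largest limma adjusted p 6.03e-15) are 30.2, 16.3 and 16.6-fold, and 6.57% of its exonic bases overlap genes on the other strand. Per kilobase of exon the mean log2 level of Id4 in tdTomato NSCs was 4.22, against 10.27 for Id3, 9.22 for Id1 and 7.95 for Id2. In tdTomato astrocytes these levels were 9.14, 12.02, 11.82 and 9.90, so that Id4 came nearer to the other ID genes while Id3 and Id1 remained the most abundant.

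MSX1 and MSX2 are homeodomain repressors induced by BMP in dorsal neural tissue. Log2 levels of Msx1 went from 8.16, 8.35 and 8.17 in NSCs to 10.70, 10.64 and 10.59 in astrocytes of the tdTomato line, from 7.97, 8.01 and 7.73 to 10.29, 10.19 and 10.23 in the EYFP line, and from 7.57, 7.62 and 7.53 to 9.10, 9.28 and 8.94 in the hippocampal line. The rises were 2.42, 2.33 and 1.54 (standard error 0.08, largest limma adjusted p 1.07e-11). Msx2 was weak, and went from 2.64, 2.85 and 2.39 in NSCs to 4.64, 4.75 and 4.23 in astrocytes of the tdTomato line, from 1.94, 1.70 and 1.44 to 2.14, 2.81 and 2.75 in the EYFP line, and from 2.98, 3.24 and 2.50 to 2.67, 2.52 and 1.80 in the hippocampal line. Only in tdTomato astrocytes did its libraries reach the filter, so that Msx2 was tested only through the group where it is high, and values that rest on that group are given as a description. Its log2 changes were 1.91, 0.87 and -0.58 (standard error 0.27). Every EYFP and hippocampal library of Msx2 lay under the level of the filter, so the changes of these lines are a description too. The tdTomato and EYFP rises are in the counts above, and the hippocampal value is not. After quantile normalization the EYFP rise lost its call. A hippocampal fall was called there (-0.98) and with a replicate block (-0.58).

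The next question is whether the pathway genes already differed between NSC lines. Against hippocampal NSCs, the mean of the traced NSCs was higher for 9 of the 44 genes and lower for 8, where 17.0% of all genes tested were higher, 14.9% lower and 31.9% either, and the median absolute log2 difference was 0.18, against 0.13 for all genes. The 8 lower genes include Msx2 (-0.75), a description, since all its NSC libraries lay under the filter. When both traced lines had to pass separately in the same direction, 7 of the 44 genes remained, each of them higher in traced NSCs. This share was near the background, since 15.5% of all genes tested did so in either direction. Inhba was higher by 1.09 (95% interval 0.71 to 1.46), Tgfbr3 by 1.01 (0.81 to 1.21) and Fstl1 by 0.89 (0.79 to 1.00) on the log2 scale, with limma adjusted p values of 0.000116, 1.39e-07 and 1.29e-10. Tgfb3 was higher by 0.79, Id1 by 0.69 and Msx1 by 0.49, with limma adjusted p values of 5.35e-07, 0.000103 and 3.76e-05. Tgif1 was higher by 0.39 (limma adjusted p 0.000166). For these 7 genes, taken because both traced lines passed, no traced NSC library overlapped a hippocampal one. How many of all genes tested were separated in this way was not counted. The summed level of 8 astrocyte markers ran from 15.1 to 15.4 in tdTomato, 15.6 to 15.8 in EYFP and stood at 16.2 in hippocampal NSC libraries, and its part in the differences between NSC lines was not tested.

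The traced NSC lines also differed from each other. Between the tdTomato and EYFP NSCs, 8 genes were higher and 8 lower in the tdTomato line, where 16.4% of all genes tested were higher, 14.9% lower and 31.4% either. The 8 higher genes include Msx2 (0.93), a description, since its libraries in both NSC groups lay under the filter. Bmpr1b was lower in tdTomato NSCs by -1.29 (limma adjusted p 9.11e-07), and Smad5 by -0.52 (2.01e-06). Tgfbr3 was higher by 0.87 (1.11e-05), Bmp7 by 0.52 (0.000922) and Tgfbr2 by 0.47 (0.000349), the values in brackets being limma adjusted p values. The ependymal marker sum was 9.45 to 9.79 in tdTomato and 10.28 to 10.33 in EYFP NSC libraries and the endothelial sum 5.73 to 6.01 and 5.11 to 5.40, and their part in these differences was not tested.

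After differentiation, the target Msx1, the ligand Bmp2 and both inhibitory SMAD genes were higher in each traced astrocyte line than in hippocampal astrocytes. The mean of the traced astrocytes was higher for 18 genes and lower for 12, where 27.9% of all genes tested were higher, 31.9% lower and 59.7% either, and the median absolute log2 difference was 0.33, against 0.24 for all genes. Both traced lines passed in the same direction for 23 genes (13 higher, 10 lower), where 44.2% of all genes did so. Higher in traced astrocytes were the ligand Bmp2 by 1.83 (95% interval 1.34 to 2.32), the target Msx1 by 1.33 (1.18 to 1.49), Smad7 by 1.07 (0.84 to 1.29), Fstl1 by 1.04 (0.94 to 1.15) and Smad6 by 0.95 (0.62 to 1.29). Their limma adjusted p values were 2.34e-06, 3.74e-11, 1.28e-07, 5.48e-12 and 5.78e-05. Lower were Chrdl1 by -1.17 (-1.47 to -0.87), Bmp1 by -0.87 (-0.97 to -0.76), Tgfbr2 by -0.76 (-0.91 to -0.61) and Tgif1 by -0.70 (-0.84 to -0.56), with limma adjusted p values of 1.30e-06, 6.81e-11, 5.19e-08 and 6.45e-08. For these 9 genes, taken from those that passed in both traced lines, the traced and hippocampal astrocyte libraries did not overlap. The share of all genes tested with such a separation was not counted. The Bmp2 difference was 2.81 for the tdTomato line and 0.84 for the EYFP line. Msx2 was higher by 1.22 on the traced mean, a value that rests on the tdTomato libraries, while its EYFP libraries overlapped the hippocampal ones, with a difference of 0.24 (limma adjusted p 0.491). Hippocampal astrocytes were also the astrocyte group with the highest Nes, the highest NSC marker sum (17.6 to 17.9 against 16.5 to 16.7 in traced astrocytes), the highest astrocyte marker sum (17.82 to 17.98 against 17.24 to 17.69) and the highest pericyte and fibroblast marker sum, 9.12 to 9.55 against 7.72 to 8.19 in traced astrocytes. Their ependymal sum was also highest (12.2 to 12.3 against 11.0 to 11.4), and their oligodendrocyte lineage sum (13.7 to 13.9 against 14.6 to 15.1) and endothelial sum (4.26 to 4.82 against 5.44 to 5.87) were lowest. The part of these markers in the differences was not tested.

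**Figure D3:**
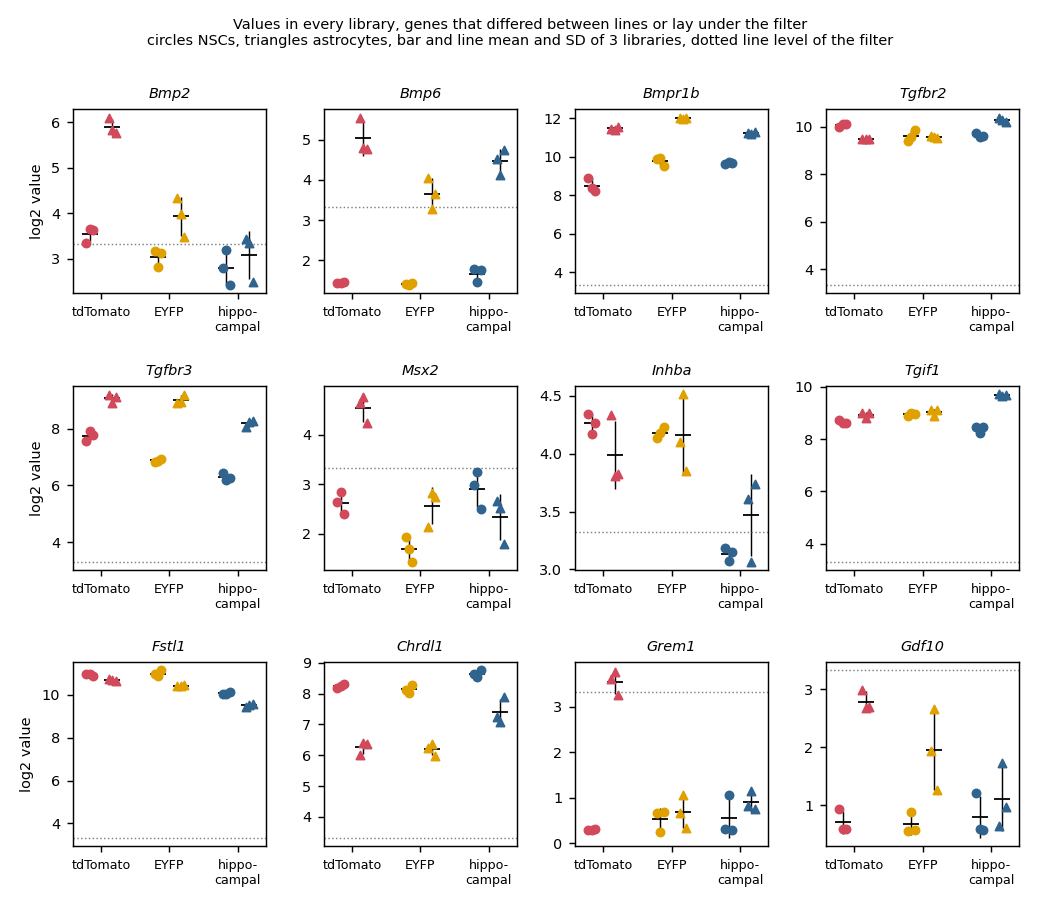
Log2 value (y axis) of 12 genes in every library by line (x axis), with circles for NSCs, triangles for astrocytes, a bar and line for the mean and SD of 3 libraries and a dotted line at the level of the filter. Bmp2, Msx2 and Grem1 are highest in tdTomato astrocytes, Inhba and Fstl1 are lower in the hippocampal NSCs than in traced NSCs, and Tgfbr2 and Tgif1 are highest in hippocampal astrocytes.

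The tdTomato and EYFP astrocytes differed in 16 of the 44 genes, 12 of them higher and 4 lower in the tdTomato line, where 7.06% of all genes tested were higher, 7.31% lower and 14.4% either. The median absolute log2 difference was 0.17 for the listed genes and 0.10 for all genes. Bmp2 was higher by 1.97 (95% interval 1.40 to 2.53) and Bmp6 by 1.38 (0.87 to 1.89), with limma adjusted p values of 4.97e-05 and 0.000628. The Msx2 difference was 1.97, a description, since the tdTomato astrocytes alone took it past the filter. Tgfb3 was higher by 0.69 and Skil by 0.68, while Id2 was lower by -0.74 (limma adjusted p 5.00e-05, 0.000233 and 0.000485). Both of these lines are DNGR-1-traced and from spinal cord. The myeloid marker sum was 5.05 to 5.83 in tdTomato and 3.71 to 4.43 in EYFP astrocytes, and 5.91 to 6.37 and 2.59 to 3.17 in the NSCs, and its part in the differences between these lines was not tested.

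Testing the change itself, traced against hippocampal, gave 14 genes with a change shifted upwards on the mean of the traced lines and 13 shifted downwards, where 20.3% of all genes tested were shifted upwards, 25.9% downwards and 46.2% either way. The count upwards includes Msx2, whose shift of 1.97 rests on the tdTomato astrocytes that took it past the filter and is a description. Bmp2, also in that count, was shifted by 1.34, a description, since its EYFP and hippocampal NSC libraries all lay under the filter. This shift came mostly from the tdTomato line, whose Bmp2 change exceeded the EYFP change by 1.46. Bmpr1b (1.03), Smad7 (1.00), Msx1 (0.84) and Smad6 (0.73) had larger log2 rises in the traced lines, with limma adjusted p values of 3.48e-05, 3.31e-05, 3.23e-06 and 0.0137. Tgif1 (-1.09), Tgfbr2 (-0.97), Id3 (-0.68) and Bmp1 (-0.68) were shifted the other way, with limma adjusted p values of 5.15e-08, 4.87e-07, 0.00101 and 4.43e-07.

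The ID genes shifted in both directions. Id3 and Id1 rose less in each traced line than in the hippocampal line. The Id4 shift came from the tdTomato line alone, since the EYFP change of 4.03 was not above the hippocampal 4.05, and the Id2 shift mostly from the EYFP line (2.65, against 1.96 in the tdTomato and 1.87 in the hippocampal line). The shifts of Id1 (-0.43, limma adjusted p 0.0331), Id2 (0.43, 0.0298) and Id4 (0.42, 0.0345) lost their calls in 8, 4 and 9 of the 18 fits that leave out a library. The highest adjusted p values were 0.119 without the first hippocampal astrocyte library, 0.101 without the third, and 0.116 without the second hippocampal NSC library. For Nog, Bambi and Smad9, no difference between traced and hippocampal changes passed the test, with 95% intervals of -0.50 to 0.93, -0.23 to 0.27 and -0.60 to 0.05 on the log2 scale.

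Between the traced lines, 13 genes differed in their change, 10 of them shifted upwards and 3 downwards in the tdTomato line, where 6.36% of all genes tested were shifted upwards, 6.98% downwards and 13.3% either way. Skil (0.98) and Id4 (0.89) were shifted upwards, with limma adjusted p values of 0.000450 and 0.00315. The count upwards includes Bmp6 (1.33), a description, since its NSC libraries all lay under the filter. It also includes Bmp2 (1.46), a description, since its EYFP NSC libraries all lay under the filter. Tgfbr3 (-0.82), Id2 (-0.70) and Tgfbr2 (-0.55) were shifted downwards, with limma adjusted p values of 0.00200, 0.0153 and 0.00446.

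**Figure D4:**
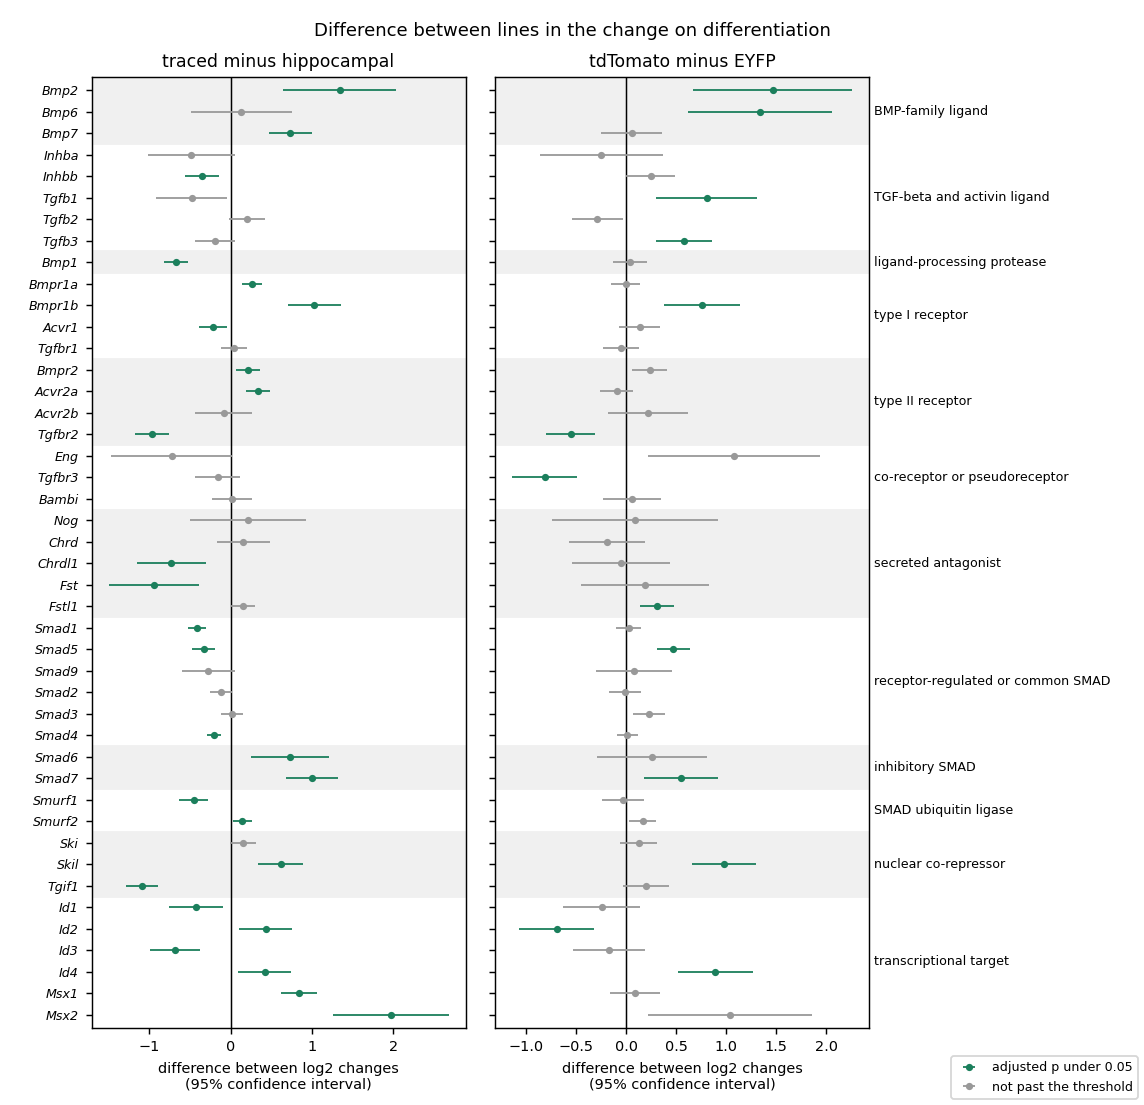
Difference between lines in the log2 change on differentiation (x axis, with 95% confidence interval) for the 44 tested genes in order of role, traced minus hippocampal at left and tdTomato minus EYFP at right. Green points have an adjusted p under 0.05 (27 at left, 13 at right) and grey points do not, and Tgif1 lies lowest at left and Tgfbr3 lowest at right.

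Other genes of the pathway were taken from a second list of 98 ligands, modulators, latency and intracellular components and targets, of which 93 were in the table and 63 were tested. They rose in 32, 34 and 28 cases in the tdTomato, EYFP and hippocampal lines, which is 50.8%, 54.0% and 44.4% against 39.9%, 38.2% and 39.0% of all genes. They fell in 18, 21 and 18 cases, which is 28.6%, 33.3% and 28.6% against 38.5%, 37.0% and 37.3%, with median absolute log2 changes of 0.59, 0.61 and 0.66. Rises of at least 1 in all 3 lines were found for 7 of the 63 (11.1%, against 9.06% of all genes) and falls for another 7 (11.1%, against 6.68%), which is near the background. Atoh8, a helix-loop-helix BMP target, rose by 5.50, 4.55 and 4.70 (largest limma adjusted p 6.25e-16), more than any of the 44 genes above. The antagonist gene Nbl1 rose by 1.99, 2.38 and 3.49. Fstl3, an antagonist gene that passed the filter only through astrocyte libraries, had log2 changes of 2.35, 2.60 and 3.23. Bgn, a proteoglycan that binds BMPs and TGF-beta, rose by 3.87, 3.39 and 1.92, and the T-box repressor Tbx2 by 2.49, 2.40 and 1.95. Falls were found for Tgif2, a co-repressor related to Tgif1 (-2.87, -2.89 and -2.44), Ctgf, a TGF-beta and YAP target (-3.33, -4.28 and -1.37), Lrrc32, which tethers latent TGF-beta (-3.17, -3.36 and -4.06), and the ligand genes Gdf15 (-2.91, -3.47 and -2.45) and Bmp3 (-3.54, -3.63 and -1.52), all with limma adjusted p values of at most 0.000486.

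The same list held antagonists that separated the lines. Sostdc1, a secreted BMP and Wnt antagonist, had log2 means of 2.48 ± 0.17, 5.36 ± 0.10 and 1.18 ± 0.34 (SD, n = 3 libraries) in tdTomato, EYFP and hippocampal NSCs, with the EYFP line highest. The EYFP NSC libraries alone took Sostdc1 past the filter, so that its traced minus hippocampal difference of 2.74 is a description. Bmper, a chordin-related modulator of BMP, had means of 10.89 ± 0.16, 9.74 ± 0.27 and 7.72 ± 0.21 in the astrocytes, a difference of 2.59 (limma adjusted p 1.33e-12). Its log2 changes on differentiation were 2.15, 1.12 and -1.88, with a call in each line, and Pcsk6, a protease that activates ligand precursors, fell in the tdTomato line, rose by 2.32 in the hippocampal line and did not pass in the EYFP line (-0.10). Ltbp1, which stores latent TGF-beta in the matrix, ran the other way in astrocytes, with means of 6.65 ± 0.27, 6.93 ± 0.13 and 8.89 ± 0.27 and a difference of -2.10 (limma adjusted p 3.24e-11).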

How the data were processed

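The authors aligned reads with STAR, counted them per gene with RSEM against Ensembl (GRCm38) and normalised them with DESeq2 1.18.1. The deposited table holds log2 expression values of 27997 genes in 18 libraries, of which 29.4% are below 0. The transform is not named in the sources used here, and counts and the depth of each library are not in the table, so no count test or counting interval was made. Values were compared with limma 3.58.1 in R 4.3.3 (6 group means, trended prior variance, all 18 libraries), after a filter of log2 3.32 in at least 3 libraries (15448 genes), with two-sided tests and Benjamini-Hochberg adjustment over these genes for each of 9 comparisons. The fit was tested on simulated data. Column labels gave the groups. The 49 genes, the second list, the markers and the tests were chosen with earlier results of these data known. Every library is printed for the 24 genes with the largest effects among 30 that had an adjusted p under 0.05 and a log2 difference of at least 1. Genes of the second list are named where the difference is at least 2. Levels per kilobase divide group means by the exonic length in Ensembl. Alternatives were other filters, pseudocounts, scalings and limma settings, fits on only the groups compared, a block for the replicate number, and fits that drop libraries in turn.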

Additional observations from a re-analysis of the deposited data

Results flagged for a closer look

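These results stand here because the change from NSC to astrocyte differed between lines, by an interaction term of the limma fit with an adjusted p under 0.05. Values are differences between log2 changes. Traced and hippocampal changes differed for 27 genes. On the mean of the traced lines, the change was shifted upwards for Msx2 (1.97), Bmp2 (1.34), Bmpr1b (1.03), Smad7 (1.00), Msx1 (0.84), Bmp7 (0.74), Smad6 (0.73), Skil (0.62), Id2 (0.43), Id4 (0.42), Acvr2a (0.34), Bmpr1a (0.26), Bmpr2 (0.21) and Smurf2 (0.14). It was shifted downwards for Tgif1 (-1.09), Tgfbr2 (-0.97), Fst (-0.95), Chrdl1 (-0.73), Id3 (-0.68), Bmp1 (-0.68), Smurf1 (-0.46), Id1 (-0.43), Smad1 (-0.42), Inhbb (-0.35), Smad5 (-0.33), Acvr1 (-0.22) and Smad4 (-0.21). The tdTomato and EYFP changes differed for 13 genes. The change was shifted upwards in the tdTomato line for Bmp2 (1.46), Bmp6 (1.33), Skil (0.98), Id4 (0.89), Tgfb1 (0.81), Bmpr1b (0.76), Tgfb3 (0.58), Smad7 (0.55), Smad5 (0.47) and Fstl1 (0.31). It was shifted downwards for Tgfbr3 (-0.82), Id2 (-0.70) and Tgfbr2 (-0.55). Against the hippocampal line, the Id4 shift came from the tdTomato line alone and the Bmp2 shift mostly from that line. The Bmp6 value is a description, since its NSC libraries all lay under the filter. Both Bmp2 values are descriptions too, since the EYFP and hippocampal NSC libraries of this gene all lay under the filter. The Msx2 value rests on the tdTomato astrocytes, the group that alone took the gene past the filter, and is a description. When 1 library was left out, 9 of these 40 calls could be lost, and the highest adjusted p values for the traced and hippocampal changes were 0.129 for Acvr1 and 0.119 for Id1 without the first hippocampal astrocyte library, 0.083 for Bmpr2 and 0.19 for Smurf2 without the second, 0.101 for Id2 without the third, and 0.116 for Id4 without the second hippocampal NSC library. For the traced lines they were 0.0924 for Tgfb1 and 0.0552 for Fstl1 without the third tdTomato NSC library and 0.115 for Smad7 without the second. Among all genes tested, 46.2% and 13.3% passed the same tests. With 1 hippocampal line, origin and line cannot be told apart. No value was examined for a single distant library, since each group holds 3.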

How the results depend on the processing

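No reported count or single-gene call of the 9 comparisons changed direction under the alternatives tried. The 9 counts of listed genes that passed stayed within 1.5 times of the reported count under the other alternatives tried, with 1 exception: of the 17 genes that differed between traced and hippocampal NSCs, 7 did so in each traced line separately and in the same direction. Without 1 library at a time, the counts ran from 36 to 37 for the change in the tdTomato line, 34 to 38 in the EYFP line and 35 to 37 in the hippocampal line. They ran from 12 to 17 for traced minus hippocampal NSCs, 25 to 32 for the astrocytes, 12 to 18 and 11 to 17 for tdTomato minus EYFP NSCs and astrocytes, and 21 to 27 and 10 to 14 for the differences between changes. Of 229 calls for single genes over the 9 comparisons, 194 held in every such fit and 35 did not. Those that did not had main differences of at most 0.93 on the log2 scale. Median centring and quantile normalization each ended 8 calls and added 9 and 16. Quantile normalization gave a hippocampal Msx2 fall (-0.98), a description, since every hippocampal library of this gene lay under the filter.

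The replicate numbers did not meet the limit set for pairing, an r over 0.1 in every pair: deviations of same-numbered libraries of other lines in the same fate correlated with a mean r of 0.106 (18 pairs, 0.0117 to 0.3125), of the same line in the other fate with -0.0235, and of other numbers in other groups with -0.0197. As a hint from the data, 13 of the 18 libraries correlated best with their own number in both other lines of the same fate, and 5 did not. With the replicate block, the counts were 37, 37 and 36 for the 3 changes, 17 and 32 for traced minus hippocampal NSCs and astrocytes, 18 and 16 for tdTomato minus EYFP, and 27 and 14 for the differences between changes. The block ended 3 calls for single genes and added 8, among them the hippocampal Msx2 change (-0.58), which is a description.

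The weak genes Bmp2, Bmp6, Eng, Inhba and Msx2 had every library of at least 1 group under the level of the filter, and depth cannot be read from the table.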
